A study of Mus musculus with 8 samples.

Results

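The regions described here are intronic sites of capped nascent RNA that lie close together, so that 1 intron or gene carries a run of them. They were chosen by 2 measured values. The first is the authors' deposited fold, which is at least 10 for 1 age over the other in every row of their larger lists of cryptic starts. The second is the position of the neighbours, since a site was kept only where another row of the same list lay within 5000 bp, edge to edge. A site also had to have no base in an exon of GENCODE M21 and its centre inside an annotated gene, on either strand. In all, 471 of 1401 rows met the rule. The old list gave 376 of its 976 rows, and the young list gave 95 of its 425. The remaining intronic rows, with no other row within 5000 bp, numbered 431 and 267.

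The study profiled frozen liver of C57/BL6J mice with PRO-cap. In this method, polymerases already engaged on chromatin extend their RNA in isolated material, and the capped 5′ ends are then read, so that each read marks where transcription began. The old group comprised 4 mice of 22 to 25 months from an aging colony and the young group 4 mice of 2 to 4 months from a commercial breeder, with 2 females and 2 males in each, all on standard chow. Age was the only difference named in the labels, though the source of the mice differed with it and cannot be told apart from it. Each deposited list is a pooled list with 1 fold per interval of 150 bp. The labels tie the larger lists to all 4 samples of an age, while the list names carry the letters that mark female samples elsewhere in the labels, so whether both sexes were pooled is not settled. Values below are the whole reads behind each fold. Because no value per animal is in the lists, no test of age was made, and intervals cover counting error only. Liver is a mixture of cells, and fewer cells of a type and less RNA per cell cannot be told apart in such samples.

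As background, RNA polymerase II normally starts at promoters, and chromatin in the body of an active gene is kept closed to new starts by histone marks and chaperones laid down during elongation. Starts inside genes that lack an annotated promoter are called cryptic. Capped nascent RNA inside introns is also made at enhancers, which often occur in groups within the introns of genes for developmental and immune regulators and are commonly transcribed in both directions.

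Sequence of the sites was analysed here only where RefSeq promoter windows cover it. RefSeq promoter windows on GRCm38.p6 lay within, or in Rab3ip partly within, 3 of the old-list clusters. Each window runs from 250 bases before to 50 bases after a RefSeq start, and these starts are additional to those of GENCODE M21. They are shown because no GENCODE M21 start lies closer than 3577 bp to the centre of any old-list member. These RefSeq starts lie between members or, in Rab3ip, 75 bp beyond the nearer one. Windows overlapped 3 of 376 old-list members, against 2 of 431 other intronic rows of that list, and 0 of 95 young-list members. In the first 2 sequences, capitals mark bases covered by a member, and in the third, which lies between members, they mark motif matches.
Gm51782 in Rab3ip, chr10:116913915-116914214, plus strand: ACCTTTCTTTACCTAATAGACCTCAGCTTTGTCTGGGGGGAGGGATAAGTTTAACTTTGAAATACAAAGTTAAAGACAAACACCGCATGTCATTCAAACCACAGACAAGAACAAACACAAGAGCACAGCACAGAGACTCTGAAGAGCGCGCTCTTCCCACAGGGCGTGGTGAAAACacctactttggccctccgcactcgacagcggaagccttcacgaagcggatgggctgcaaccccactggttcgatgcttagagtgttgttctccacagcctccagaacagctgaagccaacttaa
Gm33475 in St3gal6, chr16:58475693-58475992, plus strand: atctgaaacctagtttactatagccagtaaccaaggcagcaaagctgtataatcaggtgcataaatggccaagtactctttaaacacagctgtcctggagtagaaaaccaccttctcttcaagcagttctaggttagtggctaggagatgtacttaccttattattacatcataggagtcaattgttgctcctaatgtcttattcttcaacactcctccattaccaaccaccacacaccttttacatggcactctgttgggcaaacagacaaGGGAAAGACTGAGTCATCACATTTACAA
Gm41065 in Ankrd55, chr13:112355756-112356055, minus strand: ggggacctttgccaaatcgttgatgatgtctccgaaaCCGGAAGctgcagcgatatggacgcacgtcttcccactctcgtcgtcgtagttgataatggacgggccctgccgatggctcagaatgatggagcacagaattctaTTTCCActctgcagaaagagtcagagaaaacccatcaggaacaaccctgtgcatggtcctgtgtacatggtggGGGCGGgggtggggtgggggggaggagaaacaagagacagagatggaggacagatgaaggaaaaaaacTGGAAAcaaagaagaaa

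The window of Gm51782, a predicted gene within an intron of Rab3ip, was covered over 176 of its 300 bases by a pair of overlapping members. These had 247 reads in old against 7 in young liver and 363 against 9, ratios of 37.0 (95% interval 17.7 to 93.1) and 42.3 (22.1 to 93.3). Its RefSeq start, at 116914165, lay 75 bp beyond the nearer member. Rab3ip encodes an exchange factor for Rab GTPases in vesicle traffic. In St3gal6, a sialyltransferase gene, 28 bases of the Gm33475 window fell in a member with 112 reads against 0, and the start lay 22 bp from it. The neighbouring St3gal6 member had 90 against 0. The Ankrd55 window was covered by 0 bases, and its start lay 444 bp from the nearest member. So 2 of these 3 old-list clusters had a member within 100 bp of a start that RefSeq lists and GENCODE M21 does not. The 3 were chosen because a window lay at them, so nothing is read from this about the other old-list clusters.

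These windows were searched for 13 motifs on both strands. The motifs were the TATA box as TATAAA, the AP-1 site as TGANTCA and the CRE as TGACGTCA. Further words were the E-box as CACGTG, the Sp1 site as GGGCGG, the CCAAT box, the Runx core as TGTGGT and the GATA site as AGATAA. The others were CCGGAAG for Ets, GAGGAAGT for PU.1, TTTCCA for the NFAT core, TGTTTAC for forkhead and CAAAGTCCA for HNF4, and the Ets and PU.1 words share GGAAG. Inside the covered bases, the Gm33475 window held 1 AP-1 match, at position 282 from its 5′ end, and the Gm51782 window 1 Runx core match on the minus strand, at position 98. The Gm33475 window held a further Runx core match outside the covered bases, on the minus strand at position 230. Of all 32851 windows, 7.81% held the AP-1 word and 16.8% the Runx word. The Gm41065 window held the Ets word at 38, the NFAT word at 143 and 284 and the Sp1 word at 216, which 8.86%, 21.4% and 35.7% of all windows hold. None of the 3 windows held TATAAA, which 13.6% of windows hold. The Gm51782 and Gm41065 windows had 10 and 12 CpG dinucleotides and the Gm33475 window 0, where the median over all windows was 7. A match is a description of letters and does not show that a factor bound.

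The old-list members formed 161 clusters in 152 host genes, and the young-list members 48 clusters in 47 host genes. Most clusters were pairs: 98 old and 40 young clusters had 2 members. Larger groups came mainly from the old list, with 46 clusters of 3 or more members against 3 in the young list, and 17 of 4 or more against 1. These sizes count overlapping members separately, and the 4 members in Tmigd3, for example, were 2 sites when joined. Sizes of 3 or more were not recounted after joining. The old list is also longer (976 against 425 rows), which by itself brings more rows within 5000 bp of each other. In 17 old and 5 young clusters only 1 row met the rule and its neighbour touched an exon or lay outside genes. Just inside the distance limit were the Zfp827 pair of the old list with a gap of 4908 bp and the Abhd17c pair of the young list with 4878 bp. Just outside were rows in Elmo1 at 5120 bp and Ncoa5 at 5127 bp. The lowest fold among members was 10.07 for old-list sites, in Rbm20, and 10.38 for young-list sites, in Tns3.

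**Figure D1:**
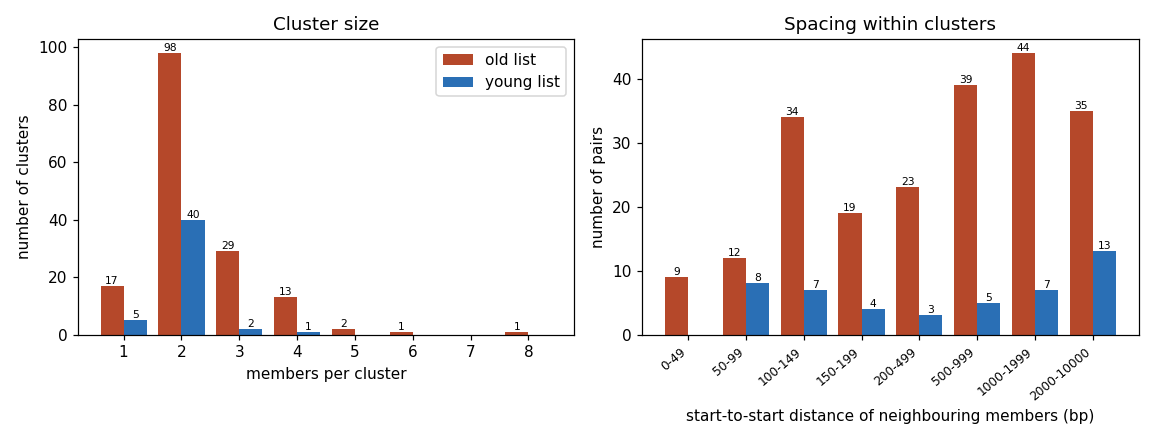
Left: number of clusters by members per cluster, in the old and young lists, with overlapping members counted separately. Right: number of neighbouring member pairs by start-to-start distance in bp, with unequal bins. Pairs are the commonest size in both lists (98 and 40 clusters), and the fullest distance bin of the old list, from 1000 bp to under 2000 bp, holds 44 pairs.

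Neighbouring members either overlapped or lay further apart, up to 5408 bp in the old list. Of 215 neighbouring pairs in the old list, 55 overlapped, with a median start-to-start distance of 111 bp, and the other 160 had a median of 978 bp. In the young list 15 of 47 overlapped, at a median of 97 bp, and 32 did not, at 1573.5 bp. Overlapping intervals can share reads. The Creb3l2 pair, shifted by 1 bp, had 123 against 9 reads in both intervals, the Tnfsf18 pair, shifted by 20 bp, 919 against 9 in both, and the Cblb pair, shifted by 39 bp, 234 against 12 in both. These 3 pairs are the ones with equal reads on the list's own side, and each is best read as 1 site. With overlapping members joined, 321 old-list and 80 young-list sites remained. In 28 of 144 old clusters with 2 or more members, and 13 of 43 young ones, all members joined into 1 site.

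Clusters mostly stayed within 1 intron, in 121 of those 144 old clusters and 35 of the 43 young ones. The introns were long, with a median of 18576 bp for old-list members and 15269 bp for young-list members, close to the 18441 and 18494 bp of the other intronic rows. The first intron, where enhancers are often found, held 51 of 376 old-list members (13.6%, 10.3 to 17.4) and 19 of 95 young-list members (20%, 12.5 to 29.5). Among the other intronic rows the shares were 10.7% (7.92 to 13.98) and 10.9% (7.40 to 15.2). All these intervals are exact binomial ones that treat each row as separate, and members of a cluster are not, so they are too narrow. The intervals overlap at both ages. The nearest annotated start lay at a median of 13996 bp from old-list members and 16385 bp from young-list members, and never closer than 3577 and 3722 bp. Most hosts were protein-coding, and 24 old-list and 5 young-list members lay in non-coding genes such as Pvt1 and Hectd2os.

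Reads at the list's own age had a median of 189 for old-list members. The quartiles were 121 and 364 and the extremes 3 and 4412. The other intronic rows of the old list had a median of 140. For young-list members the median was 222, between extremes of 6 and 1196, and for the other intronic rows it was 153. Clustered sites thus carried somewhat more reads than isolated ones in both lists, as a description of rows that the fold had already chosen and of overlapping intervals that can count a read more than once. The lowest members were 1 in Dtnb with 3 reads against 0 in the old list and 1 in Fez2 with 6 against 0 in the young list. With the 3 reads in Dtnb the direction is not settled beyond counting error, and the 6 in Fez2 are also few.

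No read at all from the other age was found at 153 of 376 old-list members (40.7%, 35.7 to 45.8), where the whole old list had 36.0%. The same held for 25 of 95 young-list members (26.3%, 17.8 to 36.4), where the whole young list had 25.2%. Since the fold chose the rows, nothing is read from these shares. A lower limit of the ratio of at least 10 was reached by 299 old-list members (79.5%) and 64 young-list members (67.4%), where the whole lists had 72.2% and 56.7%. Of the 83 old-list members with 400 or more old reads, 17 had 0 young reads, 4 had 1 to 3 and 62 had 4 or more. Of the 41 other intronic rows with as many old reads, 6 had 0, 1 had 1 to 3 and 34 had 4 or more. The 4 members with 1 to 3 were members in Ms4a6c with 1149 reads against 2, Gm17745 with 975 against 3, Sp100 with 589 against 1 and Matn2 with 505 against 3. Of the 21 young-list members with 400 or more young reads, all had 4 or more old reads. Ms4a6c encodes a membrane protein of myeloid cells.

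**Figure D2:**
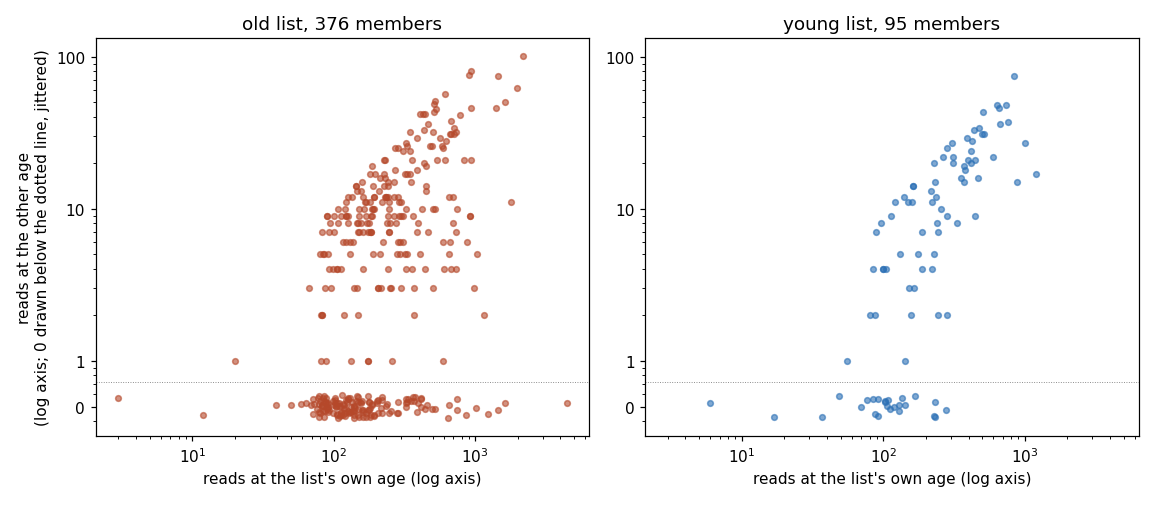
Each point is 1 member, with reads at the list's own age on the horizontal log axis and reads at the other age on the vertical log axis, for 376 old-list and 95 young-list members. Members with 0 reads at the other age are drawn below the dotted line, 153 old-list and 25 young-list ones; the slanted upper edge is the authors' fold of at least 10.

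Clusters often held members with and members without reads at the other age, and this went with the number of reads at the list's own age. Of old-list members with up to 99 old reads, 66.1% had 0 young reads, and of those with 400 or more, 20.5%. Among the other intronic rows of the old list these shares were 44.9% and 14.6%, so the fall was not particular to clustered sites. In 81 old pairs that did not overlap, 1 member had 0 young reads, and in 58 it also had fewer old reads. The members are thus not shown to be of different kinds. Of the 144 old clusters with 2 or more members, 75 held some members with 0 young reads and some without, 46 held none with 0, and in 23 every member had 0. Among the 23 were clusters in Nfatc1, Ikzf1, Igf1r, Stk3, Cdh5, Bcl2l11 and Plek. Of the 43 young clusters, 21 were mixed, 21 had none with 0, and 1, in Tmigd1, had only members with 0 old reads. Neighbours also differed in height. Among pairs that did not overlap, the higher member had at least 4 times the reads of the lower in 35 of 160 old and 3 of 32 young pairs. Across these pairs the reads of both neighbours had a Spearman correlation of 0.02 (160 old pairs) and 0.22 (32 young pairs), a description over pairs that share a pooled library and depth.

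Leukocyte transcription factors held the most hosts of old-list clusters, by count and by share, among the 9 gene lists reported here. Of 36 genes on that list, all of which have an exon-free stretch long enough for a member, 10 held an old-list member (27.8%) and 0 a young-list member. Over all 20283 protein-coding genes with such a stretch, 0.725% held an old-list member and 0.227% a young-list one. Counting any row, clustered or not, 17 of the 36 genes held one of the old list and 2 one of the young list. Rows in these genes were thus not confined to clustered ones. Several genes on this list, such as Nfatc1, Ikzf1, Runx2, Foxp1 and Nfkb1, were put on it with their members already known, so the count is no independent evidence. The comparison with all genes did not take gene length into account. With rows linked only within 1000 bp, 5 of the 10 still held a member. The values per gene follow, here and below for each member, with overlapping members not joined.

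The largest cluster by reads lay in the last annotated intron of Nfatc1 (ENSMUSG00000033016.16), a calcium-responsive factor of lymphocytes, on chromosome 18 from 80614874 to 80620412. Its 5 members had 4412, 1619, 517, 742 and 283 old reads from left to right, and all had 0 young reads. They were at least 1544-, 566-, 181-, 260- and 99.01-fold higher in old liver, taking 3 reads over the pooled young side as the floor. The leftmost pair overlapped. A second Nfatc1 cluster, from 80652908 to 80654439 in introns 6 and 7, had 194 against 0, 415 against 0 and 310 against 9. Every member of the first cluster was also in the stricter list.

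Ikzf1 (ENSMUSG00000018654.17), which encodes Ikaros, held a pair in intron 3 on chromosome 11, with 132 and 860 reads against 0, the latter at least 301-fold higher. Its relative Ikzf3, which encodes Aiolos, had 206 against 0 and 275 against 8, the latter a ratio of 36.1 (18.1 to 84.4). Bcl11a, a factor of B cell and globin regulation, held 701 against 8, 119 against 0 and 72 against 0 in intron 2. Bcl11b, a T cell lineage factor, held 284 against 0 and 295 against 5 in its last intron. The members in Ikzf1, Ikzf3, Bcl11a and Bcl11b had at most 8 young reads.

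Foxp1 (ENSMUSG00000030067.17), a forkhead factor of B cell development, held clusters in introns 6 and 4 on chromosome 6. The first had 705 against 31, 150 against 0, 370 against 3 and 92 against 0 reads over 4303 bp. The second had 101 against 9, 179 against 0 and 86 against 0. Nfkb1, the p105 and p50 subunit of NF-kappaB, held 4 members in intron 6 with 188 and 278 reads against 5 each, 113 against 0 and 284 against 6. The first 2 overlapped, shifted by 36 bp. Runx2, a Runt factor best known from bone, held 1020 against 0 and 937 against 80, neighbours of similar height in old liver that differed widely in young liver. Their starts lay 2328 bp apart in 1 intron. Lef1, a Wnt effector of T cells, held 126 against 8 and 87 against 3, and Bach2, a B cell repressor, a single member with 223 against 6.

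Of 46 leukocyte signalling and surface genes, 4 held an old-list member (8.70%) and 0 a young-list one. Over all protein-coding genes with room for a member the shares were 0.725% and 0.227%. Counting any row, 5 of the 46 held one of the old list and 1 one of the young list. This list too was chosen with earlier results known, so the count is no independent evidence. Hvcn1 (ENSMUSG00000064267.13), the voltage-gated proton channel of B cells and phagocytes, held the cluster with most members, 8 within 3288 bp of introns 3 and 4 on chromosome 5, from 122232056. From left to right they had 297, 84, 205, 448, 320, 776, 582 and 242 old reads, against 9, 0, 3, 14, 17, 41, 26 and 14 young reads. The same member, sixth from the left, was the highest at both ages. With overlapping members joined, the 8 were 6 sites. Elmo1, an adaptor of Rac activation in phagocytosis, held 3 members with 178 against 0, 1032 against 5 and 124 against 0, and a second pair with 249 against 3 and 59 against 0. Pde4b, a cyclic AMP phosphodiesterase of immune cells, held 6 members at 2 places of intron 7, with 82 to 615 old and 0 to 57 young reads. Fyn, a Src-family kinase, held 79 against 0 and 420 against 10.

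**Figure D3:**
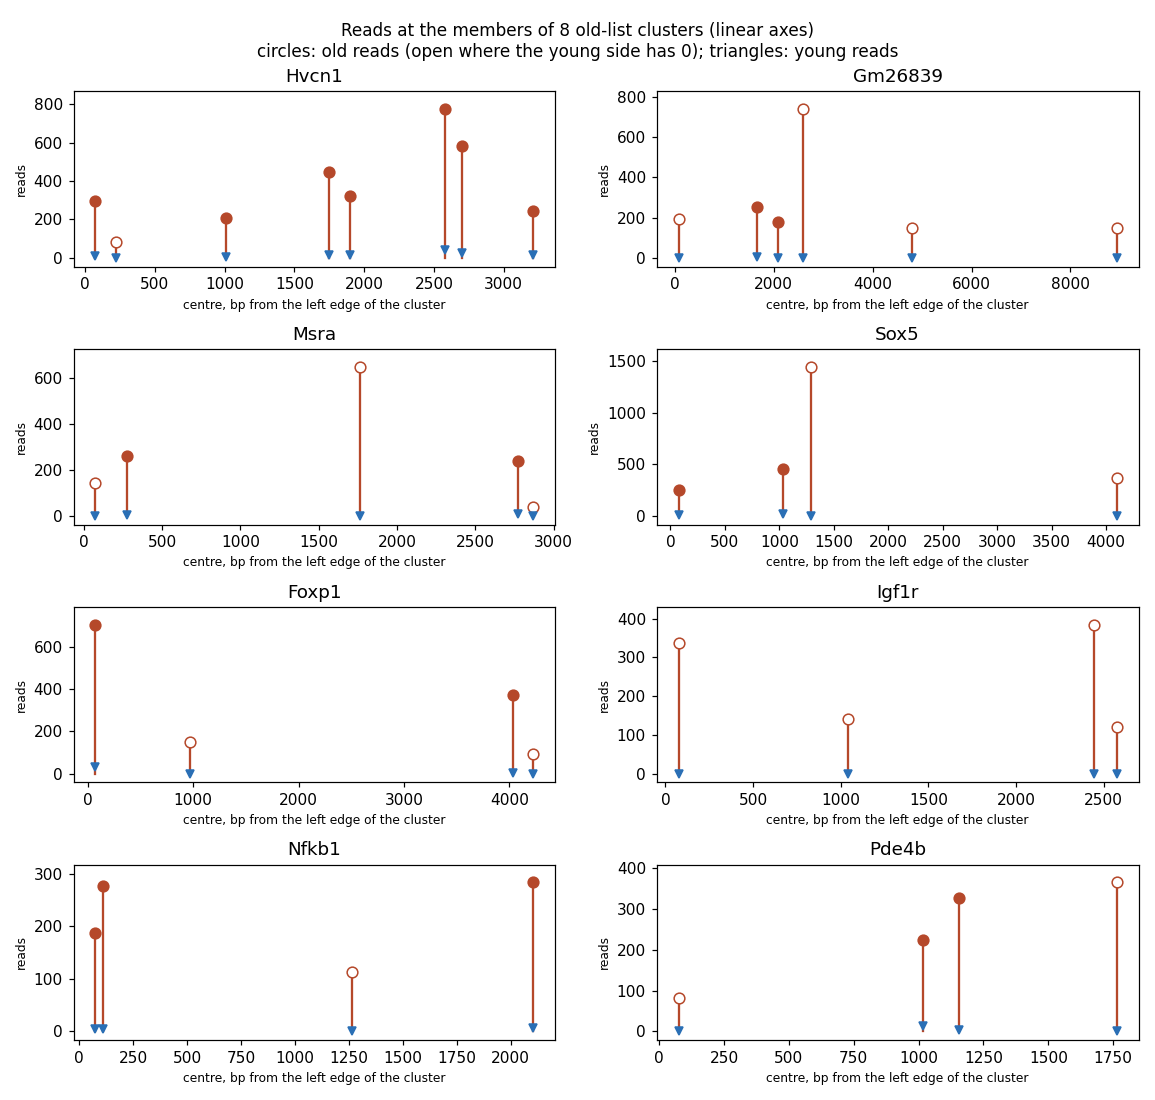
Reads at each member of 8 old-list clusters, against distance in bp from the cluster's left edge, on linear axes. Circles are old reads, open where the young side has 0, and triangles young reads. In Igf1r all 4 circles are open, in Hvcn1 1 of 8.

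Some further old-list clusters are grouped here because a leukocyte gene or receptor lies at or near them. The share of all clusters with such a neighbour was not counted, so no pattern is read from them. The cluster in intron 1 of Tmigd3, which overlaps the adenosine receptor gene Adora3, had 1957 against 62, 64 against 0, 442 against 42 and 432 against 33. With overlapping members joined, these were 2 sites. A cluster in introns 41 and 42 of Tg, the thyroglobulin gene, lies within 3710 bp of a start of Sla, a Src-like adaptor of lymphocytes, whose annotated span also covers members there. It had 321 against 5, 653 against 12, 79 against 0 and 225 against 21. The cluster in Scn4a has its nearest start in Cd79b, a B cell receptor subunit, at 10270 bp. These are distances, and which gene such a site acts on was not tested.

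Of 25 listed Hippo pathway and growth kinase genes, 3 held an old-list member (12.0%) and 0 a young-list one. Over all protein-coding genes with room for a member the shares were 0.725% and 0.227%. Counting any row, 5 of the 25 held one of the old list and 1 one of the young list. The list was chosen with earlier results known, so the count is no independent evidence. Igf1r (ENSMUSG00000005533.10), the receptor of insulin-like growth factor, held 4 members in introns 19 and 20 on chromosome 7, with 337, 142, 385 and 120 old reads and 0 young reads each. Stk3, the Hippo pathway kinase MST2, held 494 and 329 against 0 in its last intron and 110 against 0, 1232 against 0 and 81 against 1 in intron 9. Nf2, the tumour suppressor merlin, held 158 against 0, 93 against 7 and 117 against 6. In Igf1r and Stk3 the old reads at members thus met at most 1 young read.

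Other named old-list clusters were spread over many kinds of gene. Msra, a methionine sulfoxide reductase, held 3 clusters with 11 members in intron 10, 39 to 670 old reads against 0 to 31 young reads. Sox5, an Sry-box factor, held 245 against 10, 452 against 13, 1448 against 0 and 368 against 0 in intron 1. The non-coding gene Gm26839 held 6 members over 9008 bp, the widest cluster, with 146 to 740 old reads against 0 to 3. Rarb, a retinoic acid receptor, held 4 members with 190 to 463 against 14 to 36, and Celf2, an RNA-binding protein gene, 4 with 157 to 517 against 0 to 51. Ankrd55 held 670 against 38, 1794 against 11 and 641 against 0, ratios of 18.5, 171 and at least 224-fold within 1350 bp. Its first 2 members overlapped, so the cluster was 2 sites when joined. Tmem163 held 2176 against 101 and 50 against 0. Mta3, a chromatin remodelling subunit, held 1445 against 74 and 69 against 0, and Olfr56 1412 against 46 and 162 against 4. Txndc11 and its neighbour Snn shared a cluster with 458 against 0, 1629 against 50 and 563 against 29. Further clusters of 3 or 4 members, whose highest member had between 176 (Camk2d) and 741 (Padi1) old reads, lay in Ano6, Apaf1, Asph, Borcs7, Camk2d, Cox10, Dop1b, Elf4, Fnbp1, Gm1123, Gm14005, Napepld, Padi1, Pik3c2b, Pnpla5, Rasa3, Rbm20, Snx29, Ubash3b and Ubxn11.

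The phosphodiesterase and chromatin lists, also chosen with earlier results known, each held 1 host. Over all protein-coding genes with room for a member, 0.725% held an old-list member. Pde4b was the 1 host among 20 phosphodiesterases. Among 32 chromatin and elongation factors 1 held an old-list member, the remodeller Chd1, with 241 against 4 and 91 against 0 in overlapping intervals.

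Among the hosts of young-list clusters were Nfib and Ttr, which were known to hold rows when the lists were written. Nfib (ENSMUSG00000008575.17), a nuclear factor I gene, held 463 young against 16 old reads, 312 against 20, 107 against 0 and 839 against 75, in 2 clusters of introns 2 and 3 on chromosome 4. Of 29 hepatocyte secreted proteins with room, 1 held a young-list member (3.45%) and 0 an old-list one. Over all protein-coding genes with room the shares were 0.227% and 0.725%. The young-list host was Ttr, the thyroxine and retinol carrier, with overlapping intervals of 373 against 15 and 55 against 1.

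The largest young-list cluster by members lay in Elovl2 (ENSMUSG00000021364.16), a fatty acid elongase of polyunsaturated lipids, on chromosome 13 from 41193198 to 41199120. It had 131 young against 5 old reads, 112 against 0, 380 against 18 and 91 against 0. Rbfox2, a splicing regulator, held 168 against 0 and an overlapping pair of 494 against 31 and 417 against 24. Dip2b held 88 against 0, 282 against 2 and 157 against 2. The highest young-list member, with 1196 against 17, lay within Zfpm1 beside one with 233 against 0, and the next, with 1009 against 27, in BC053393 beside one with 278 against 0. The first pair is assigned by length to Gm20388, an annotated gene that spans Zfpm1, which encodes the GATA cofactor FOG-1. Further clusters with many reads lay in Ythdf2 (885 against 15), Pqlc2 (766 against 37), Nav2 (739 against 48), Sipa1l1 (669 against 36), Gm10658 (659 against 46), Cpn2 (639 against 48) and Hectd2os (595 against 22).

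**Figure D4:**
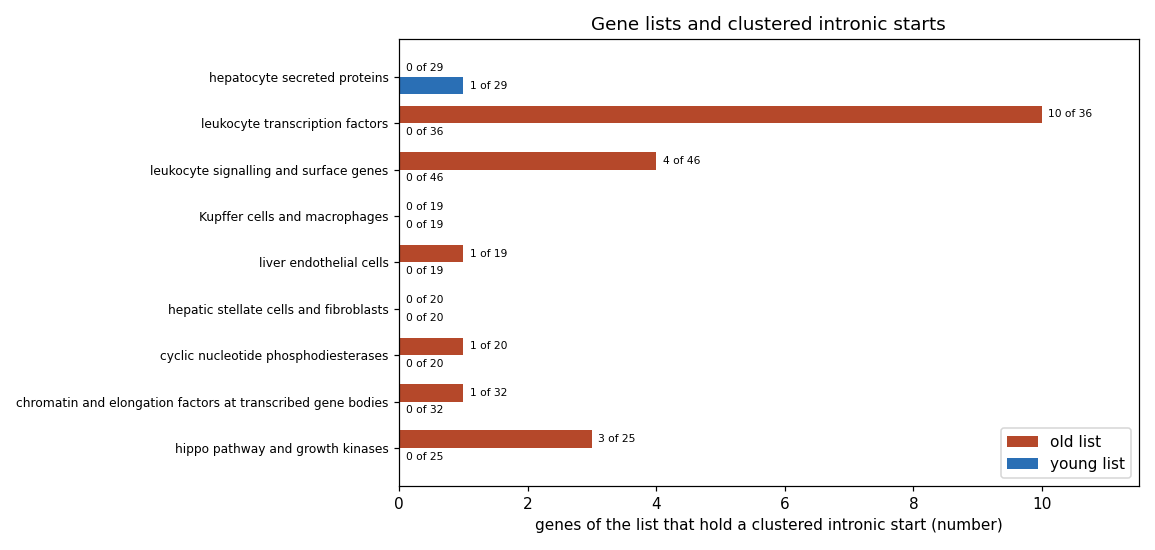
Number of genes on each of 9 lists that hold a clustered intronic start, by list age; labels give the count of genes with room for a member. Leukocyte transcription factors hold 10 old-list and 0 young-list hosts, and hepatocyte secreted proteins 0 and 1.

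Markers of liver cell types held few members. Of 5 hepatocyte markers, Ttr held young-list members. Of 4 endothelial markers, the vascular cadherin gene Cdh5 held 255 and 162 old against 0 young reads in overlapping intervals. None of the 5 leukocyte, 4 Kupffer cell or 4 stellate cell markers held a member of either list. The longer lists of 20 Kupffer cell and 20 stellate cell genes held 0 as well. The longer list of 19 endothelial genes held 1 old-list host, Cdh5 (5.26%), and 0 young-list hosts. Over all protein-coding genes with room, 0.725% held an old-list member. This gene list too was chosen with earlier results known, so the count is no independent evidence. The lists hold peaks and no expression, so the share of leukocytes in either group of mice could not be read from them, and its part in the leukocyte gene count was not tested.

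No host gene held members of both lists. With 0.725% and 0.227% of protein-coding genes holding a member of either list, few shared hosts could occur, and nothing is read from that count. Of the 152 old-list hosts, 9 held some row of the young list, and of the 47 young-list hosts, 3 held some row of the old list. The share of all genes with such a row was not counted, so nothing is read from these counts either. Rad51b, a recombination repair gene, had young-list members of 103 against 0 and 257 against 10 besides 3 old-list rows that were not members, and Nsmce2 had 2 old-list members and 1 young-list row. Of the 161 old-list clusters, only the one in Rfx4, a winged-helix factor gene, lay within 5000 bp of a young-list row, at 1378 bp. It had 79 against 0 and 593 against 25. The fold of at least 10 keeps 1 interval out of both lists by construction, so these counts are also partly set by the rule.

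Members overlapped the authors' stricter list of the same age in 112 of 376 cases in old liver (29.8%), where the whole old list had 21.9%. Other intronic rows of the old list did so in 67 of 431 cases (15.5%). Both lists come from the same contrast, so this is a description. In 17 of the 144 old clusters with 2 or more members, every member was in the stricter list, among them those of Nfatc1, Sox5, Arhgef3, Ikzf3, Jak1 and Prkce. In 76 none was, Foxp1's larger cluster and that of Rbm20 included. Of the 95 young-list members 1 overlapped the stricter young list, in Zfpm1 (1.05%), where the whole young list had 0.941%. That list has only 10 rows.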

How the data were processed

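PRO-cap libraries of 8 liver samples underlie 4 deposited peak lists. The submitters' processing notes name HOMER, bedtools 2.27.1-65, BWA 0.7.10, SAMtools 1.1 and cutadapt 2.10, and the builds hg19, GRCm38 and mm10. Pooling, peak calling, the counting window and strand, and the cryptic filter are steps not given in the sources used here. In the larger lists, the authors deposited a fold (a ratio of the list's age over the other age) for each row, and a score of 0 in every row of the stricter lists, which were used for positions only. Every row carries a plus sign, so strand was ignored.

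Each deposited ratio was solved as a scaled whole count plus 1 over a scaled whole count plus 1, within 1e-07 reads, with up to 1000 reads tried on the other side; all 976 and 425 folds had 1 solution. A read was worth 8.55 (old) or 8.15 (young) times the added constant. Ratios of young over old reads were therefore multiplied by 0.953, and ratios of old over young reads divided by it. This is the relative depth of old over young if both sides were scaled alike. The total depth is unknown. Intervals are 95% Clopper-Pearson and cover counting error only; against 0 reads, a floor of 3 reads over the pooled side gives a lower bound. Rows were linked and assigned with Python 3.11.15 and pandas 2.3.3, after the procedure was tested on simulated data. The host was the longest protein-coding gene at the centre, or else the longest gene of any type, and introns come from its transcript with most exons that spans the centre. Named genes are hosts of clusters of 3 or more members, of the 10 clusters per list with most reads, and list members; others, such as Dtnb, Fez2, Cblb, Creb3l2, Rfx4, Rab3ip, St3gal6 and Mgat4a, were named after their values were seen. Members and gene lists were chosen with earlier results of these data known. Some planned gene lists and their results are not reported here. GC content, repeats and motifs over all sites were planned but not analysed here, so RefSeq promoter windows are printed in place of member sequences.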

Additional observations from a re-analysis of the deposited data

How the results depend on the processing

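The numbers of members, clusters and host genes, the median reads, the shares at 0, in the stricter list and in the first intron, and the leukocyte transcription factor count were recomputed under each alternative. Of these 107 values, 95 stayed within 1.5 times the count or within the 95% interval of the share or median. Linking rows within 10000 bp, testing the centre only for exons, using protein-coding genes only, joining overlapping members, requiring 75 bp of overlap with the stricter list, and, added after seeing the data, requiring a neighbour that does not overlap left all of these within those limits (the 75 bp overlap was applied to the stricter-list share alone). Cluster sizes, spacing, neighbour correlations, shared hosts, motifs and the other gene lists were not recomputed. Linking within 1000 bp left 58 members, 30 clusters and 30 host genes in the young list, a stricter-list share of 0% there, and 5 leukocyte transcription factors in the old list. A fold of at least 20 left 42 members, 20 clusters and 20 host genes in the young list, with a median of 155 reads and 40.5% at 0 old reads; in the old list 53.3% had 0 young reads and 36.6% overlapped the stricter list. The shifts in shares at a fold of at least 20 follow from dropping rows of lower fold. No paired analysis was possible because each list pools its samples, and for the same reason no sample could be left out. GC content, repeat content and TATAAA at the sites were not run, for lack of a genome. Depth limits the members with few reads: at 0 reads the other age may hold up to 3.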

Other observations

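In overlapping pairs of members, the interval at the lower coordinate usually had more reads at the list's own age, in 58 of 70 pairs, with the higher coordinate ahead in 9 and equal reads in 3. In the old list alone this was 44 against 8, and in the young list 14 against 1. Pairs that did not overlap showed no such order, with 94 against 98. In 20 overlapping pairs 1 interval had 0 reads at the other age and its partner did not. The interval with 0 was at the higher coordinate in 19 of the 20, as in Tmem163 (2176 against 101, then 50 against 0), Mgat4a (910 against 76, then 100 against 0), Tmigd3 and Ythdf2. The exception was the Dip2c pair of the young list. In all 20 the interval with 0 also had fewer reads at the list's own age. Of these 19 pairs, 10 lay in host genes on the plus strand and 9 on the minus strand. Among the pairs apart from each other with 1 interval at 0, that interval was at the higher coordinate in 40 of 97. The pattern was noticed in these data, the lists give no strand for a peak, and its cause was not tested.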
